A study of Mus musculus with 8 samples.

Results

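The Notch pathway was followed through 34 genes, listed by name as receptors, ligands, fringe glycosyltransferases, nuclear cofactors, target genes and regulators. Each of the 34 had at least 1 probe set naming it alone, among 22180 genes measured in this way, and was represented by its probe set of highest mean level. Expression was measured in 8 clonal mouse tumour lines, 4 from intrahepatic cholangiocarcinoma (ICC, a liver cancer resembling bile duct) and 4 from hepatocellular carcinoma (HCC, a liver cancer resembling hepatocytes), on 1 Affymetrix array per line. Both tumour types were started in C57BL/6 mice with the same pCaMIN vector, which carries c-Myc and NrasG12V, and hepatocytes were the cells transformed. The vector was delivered by focal electroporation of the liver for ICC and by hydrodynamic injection into the tail vein for HCC, so tumour type and delivery cannot be told apart. Of the ICC lines, ICC9 and ICC10 are labelled female and ICC2.7 and ICC2.9 male; of the HCC lines, HCC2.1 and HCC2.4 are labelled female and HCC1 and HCC4 male. All were grown untreated in DMEM with 10% fetal calf serum, each line is 1 clone, and the labels do not say which lines share an animal or tumour. The p-values therefore measure only the spread between these lines.

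Notch receptors are single-pass membrane proteins that are switched on by Jagged or Delta ligands on a neighbouring cell. Cleavage by an ADAM protease and then by gamma-secretase frees the intracellular domain, which joins RBPJ and a Mastermind-like protein in the nucleus and turns on genes of the HES and HEY families. In the developing liver this signal, given mainly by JAG1 to NOTCH2, directs progenitor cells to form bile ducts. The comparison of ICC with HCC lines asks which of these genes differ between the tumour types when the transformed cell and the oncogenes are the same.

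Values are log2 signals of the deposited normalized table, with array medians between 5.02 and 5.09, and precision is limited by the number of arrays. The 8 columns span only 7 directions. Written for ICC9, its values equal a weighted sum of the other lines to within 0.0037 log2 units (SD over probe sets). The relation involves lines of each type and sex, so it does not mark ICC9 as the only dependent line. Some results are therefore also given without ICC9 or with the missing direction as a term in the model. Among markers of the labelled tumour types, 7 of 8 hepatocyte genes lay below the median gene level of 5.66. Albumin stood at 4.12 to 4.64. The hepatocyte gene with a mean above the median was Hnf4a. It stood at 7.26 in HCC2.1 and 7.06 in HCC2.4, and at 5.32 to 5.92 in the other lines. Of 5 biliary markers 3 had a mean above that median (Sox9, Krt7 and Krt19) and 2 lay below it (Epcam and Cftr). Over the 8 lines the biliary factor Sox9 stood at 11.45 to 11.86 and Krt7 at 5.84 to 6.04. Epcam stood at 4.14 to 5.12 and Cftr at 2.88 to 3.75. All 8 endothelial markers lay below that median, and of 6 leukocyte markers only Cd68 (7.31 to 10.21) lay above it. Of 6 mural and stellate markers 4 lay above it, among them Pdgfrb (6.66 to 10.55) and Rgs5 (4.40 to 10.12).

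No Notch gene separated ICC from HCC lines. Limma without covariates called 0 of the 34 members, beside 0.261% of all genes (58), with p-values adjusted over all 22180 genes. The smallest adjusted p of a member was 0.201. At an unadjusted p under 0.05 there were 3 members (8.82%), against 14.1% of all genes. These 3 were the ligand gene Jag2, the fringe gene Lfng and the target gene Nrarp, each with the lower mean in ICC lines. The ranges of the 4 ICC and 4 HCC values overlapped in all 34 members, while 8.63% of all genes had no overlap. The members had a median difference of -0.06 log2 units (ICC minus HCC) against 0.0025 over all genes, with 24 of 34 below 0. Their median absolute difference was 0.14, against 0.13 over all genes.

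**Figure D1:**
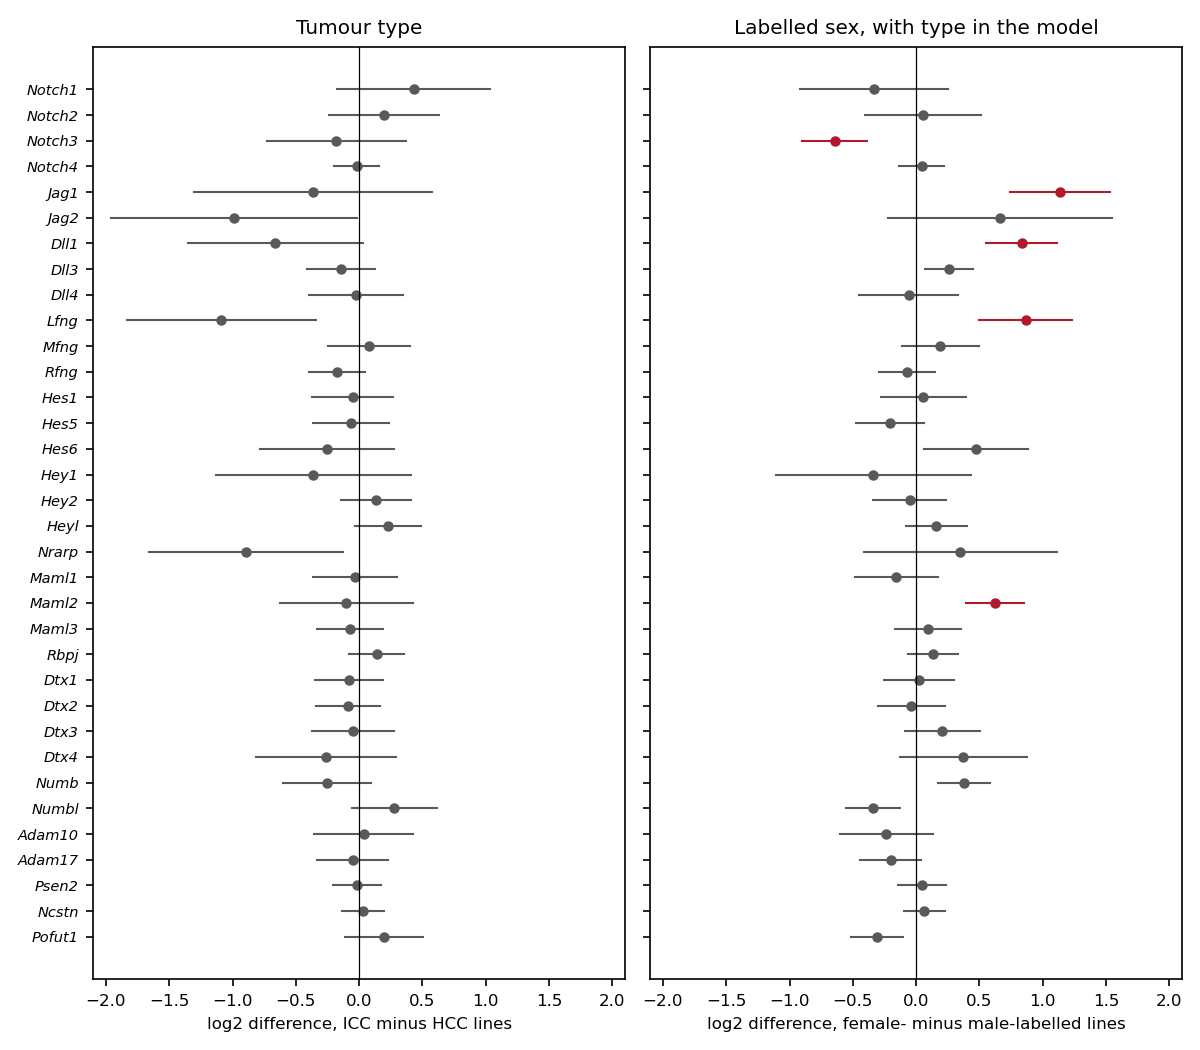
Log2 differences of the 34 members with 95% intervals from limma (points and bars), ICC minus HCC lines on the left and female- minus male-labelled lines on the right, 4 lines against 4 in each panel. Red marks an adjusted p under 0.05 over all genes: 0 members for tumour type, and Notch3, Jag1, Dll1, Lfng and Maml2 for labelled sex.

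The labelled sex of the lines gave calls where tumour type, fitted without sex in the model, gave none. With sex as a covariate, limma called 2 members (Dll1 and Lfng) and 428 genes between the tumour types. The comparisons were not tested against each other. With tumour type in the model, limma called 5 of the 34 members between female- and male-labelled lines (14.7%), beside 2.94% of all genes. At an unadjusted p under 0.05 there were 10 members (29.4%), against 17.5% of all genes, and 7 had no overlap between the sexes, against 8.76%. The ligand genes Jag1 and Dll1, the fringe gene Lfng and the coactivator gene Maml2 were higher in female-labelled lines, 4 members against a background of 1.48% of genes called in that direction. The receptor gene Notch3 was lower, 1 member against a background of 1.47%. Most members were above the median gene level. Among genes above that level, limma called 6 of 30 members and 858 of 11087 genes between the sexes. Since each sex in each type is only a pair of lines, labelled sex cannot be told apart from other properties that the lines of a pair share. The count of 5 became 0 without ICC9, HCC2.1 or HCC2.4, 2 without ICC2.7 or ICC2.9, 3 without ICC10, 4 without HCC4 and 5 without HCC1. The count over all genes moved as well, from 653 to 146 without ICC9, 285 without HCC2.1 and 294 without HCC2.4. It was 2 (Jag1 and Dll1) once the missing direction entered the model, and 0 with the lines of a pair averaged.

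Among the receptors, which receive the signal, Notch1 was highest in the male-labelled ICC lines. Notch1 measured 6.97 in ICC9, 6.58 in ICC10, 7.83 in ICC2.7 and 7.60 in ICC2.9, and 6.88 in HCC1, 6.47 in HCC4, 6.84 in HCC2.1 and 7.07 in HCC2.4. ICC2.7 and ICC2.9 lay above the other 6 lines, whose values overlapped between the types. The means were 7.25 ± 0.57 in ICC and 6.82 ± 0.25 in HCC lines (SD, n = 4 each), a difference of 0.43 (95% interval -0.17 to 1.03, adjusted p = 0.509). It was 0.235 without ICC2.7 and 0.65 without ICC10, not called in either case. Notch2, the receptor named above for bile duct formation, measured 9.41, 9.06, 9.46 and 9.83 in ICC9, ICC10, ICC2.7 and ICC2.9, and 8.96, 9.0, 9.51 and 9.49 in HCC1, HCC4, HCC2.1 and HCC2.4. Its lowest values were in the male-labelled HCC lines and in ICC10, and the types overlapped. The difference was 0.20 (95% interval -0.23 to 0.63, adjusted p = 0.686).

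Notch3, a receptor best known from mural cells of vessels, was lower in every female-labelled line than in any male-labelled one. It measured 5.47 in ICC9, 5.61 in ICC10, 5.49 in HCC2.1 and 5.56 in HCC2.4, against 6.12 in ICC2.7, 5.86 in ICC2.9, 6.31 in HCC1 and 6.42 in HCC4. The female-labelled mean was 5.53 ± 0.06 and the male-labelled mean 6.18 ± 0.25 (SD, n = 4 each), a log2 difference of -0.65 (SE 0.11, 1.56-fold lower, adjusted p = 0.0243). The difference was -0.45 within ICC and -0.84 within HCC lines. The call was lost without ICC9 (adjusted p = 0.109), ICC2.7, HCC1, HCC2.1 or HCC2.4, and once the missing direction was modelled (0.07). Of the 6 mural and stellate markers 1 was also called, the smooth muscle actin gene Acta2, lower in female-labelled lines by 0.52 (log2 difference -0.52, adjusted p = 0.046). Their summed level (log2) ran from 8.67 to 10.67 in female- and from 10.20 to 11.52 in male-labelled lines, and no marker was at 0; their part in the result was not tested. Between tumour types Notch3 differed by -0.18 (adjusted p = 0.785). Notch4, mostly an endothelial receptor, measured 5.98, 5.95, 5.98 and 5.90 in ICC9, ICC10, ICC2.7 and ICC2.9 and 5.93, 5.95, 6.10 and 5.90 in HCC1, HCC4, HCC2.1 and HCC2.4, with no step by type or sex.

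The ligands are the membrane proteins that activate Notch on the adjoining cell. Jag1, the ligand behind bile duct development, measured 11.63 in ICC9, 11.62 in ICC10, 12.09 in HCC2.1 and 12.12 in HCC2.4. In the male-labelled lines it measured 10.84 in ICC2.7, 10.37 in ICC2.9, 11.22 in HCC1 and 10.49 in HCC4. Every female-labelled line thus lay above every male-labelled one, at 11.87 ± 0.28 against 10.73 ± 0.38 (SD, n = 4 each), a 2.20-fold difference (log2 difference 1.135, SE 0.17, adjusted p = 0.0147). It was 1.02 within ICC and 1.25 within HCC lines. Without ICC9 the difference was 1.16 and not called (adjusted p = 0.0634). Nor was it called without ICC2.9, HCC2.1 or HCC2.4. Between ICC and HCC lines Jag1 differed by -0.37 with a wide interval (95% interval -1.31 to 0.58, adjusted p = 0.740).

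Dll1, a Delta ligand, showed both a step between sexes and lower values in ICC lines of each sex. It measured 6.19 in ICC9 and 6.17 in ICC10 against 6.94 in HCC2.1 and 6.96 in HCC2.4, and 5.49 in ICC2.7 and 5.42 in ICC2.9 against 6.28 in HCC1 and 5.74 in HCC4. Within each type the female-labelled pair lay above the male-labelled pair, but HCC1 lay above ICC9 and ICC10. The female minus male difference was 0.83 (SE 0.12, 1.78-fold, adjusted p = 0.0135). Without ICC9 it was 0.85 and not called (adjusted p = 0.0643), nor was it called without HCC2.1 or HCC2.4. The ICC minus HCC difference of -0.66 had an adjusted p of 0.373 without covariates, 0.0419 given sex as a covariate, and 0.11 after adding the missing direction to it. A second probe set of Dll1, at 5.06 to 5.51, differed by 0.22 between the sexes (adjusted p = 0.249) and by -0.06 between the types (adjusted p = 0.843), so the probe sets of this gene disagreed in size.

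Jag2, the other Jagged ligand, was lowest in the male-labelled ICC lines and had the widest range of the 34 members, 2.35 log2 units. It measured 8.40 in ICC9, 9.09 in ICC10, 7.59 in ICC2.7 and 6.74 in ICC2.9, against 9.08 in HCC1, 9.07 in HCC4, 8.84 in HCC2.1 and 8.79 in HCC2.4. The HCC lines lay close to each other, and ICC10 reached their level. The means were 7.96 ± 1.02 in ICC and 8.95 ± 0.15 in HCC lines (SD, n = 4 each), a difference of -0.99 (1.99-fold, 95% interval -1.96 to -0.02) that did not pass over all genes (adjusted p = 0.346). Without ICC2.9 the difference was -0.585, and array weights gave -0.51. Dll3, a ligand that acts inside the cell to dampen Notch, measured 4.31, 4.37, 4.04 and 3.95 in ICC9, ICC10, ICC2.7 and ICC2.9 and 4.22, 4.23, 4.48 and 4.31 in HCC1, HCC4, HCC2.1 and HCC2.4. Its female-labelled values lay above the male-labelled ones by 0.26 on average (adjusted p = 0.155). Dll4, an endothelial ligand, measured 4.50, 4.70, 4.24 and 4.48 in the ICC lines and 4.47, 4.90, 4.14 and 4.51 in the HCC lines in the same order, with no step by type or sex. Dll3, Dll4, the fringe gene Mfng and the target gene Hey2 were the 4 members below the median gene level, and signal over background was not assessed.

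Fringe enzymes add a sugar to Notch receptors and so change their response to Jagged and Delta ligands. Lfng had the largest ICC minus HCC difference of the 34 members. It measured 7.72 in ICC9, 7.98 in ICC10, 6.82 in ICC2.7 and 6.49 in ICC2.9, and 8.18 in HCC1, 7.97 in HCC4, 8.69 in HCC2.1 and 8.53 in HCC2.4. Only ICC10, just above HCC4, kept the types from separating. The means were 7.25 ± 0.71 and 8.34 ± 0.33 (SD, n = 4 each), a 2.13-fold lower level in ICC lines (log2 difference -1.09, 95% interval -1.84 to -0.34, adjusted p = 0.201). Within the female-labelled lines the difference was -0.76 and within the male-labelled lines -1.42. Given sex as a covariate limma called it (adjusted p = 0.0205), but not after adding the missing direction (0.0538). Between the sexes Lfng differed by 0.865 (SE 0.16, 1.82-fold, adjusted p = 0.0317), by 1.195 within ICC and by 0.535 within HCC lines. Without ICC9 that difference was 0.85 and not called (adjusted p = 0.129). Of the fits with a line left out, only the fit without HCC1 called it. The call was also lost once the missing direction was modelled (0.0753) or the pairs entered as a random block (0.0574).

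The other fringe genes, Mfng and Rfng, had no call. Mfng measured 5.54, 5.47, 5.09 and 5.71 in ICC9, ICC10, ICC2.7 and ICC2.9, and 5.23, 5.25, 5.51 and 5.52 in HCC1, HCC4, HCC2.1 and HCC2.4. Rfng measured 7.72, 7.81, 7.63 and 7.76 in the ICC lines and 7.97, 8.05, 7.90 and 7.70 in the HCC lines in that order. Neither gene passed for type (differences 0.07 and -0.17, adjusted p = 0.858 and 0.454) or for sex (0.19 and -0.07, adjusted p = 0.520 and 0.771).

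**Figure D2:**
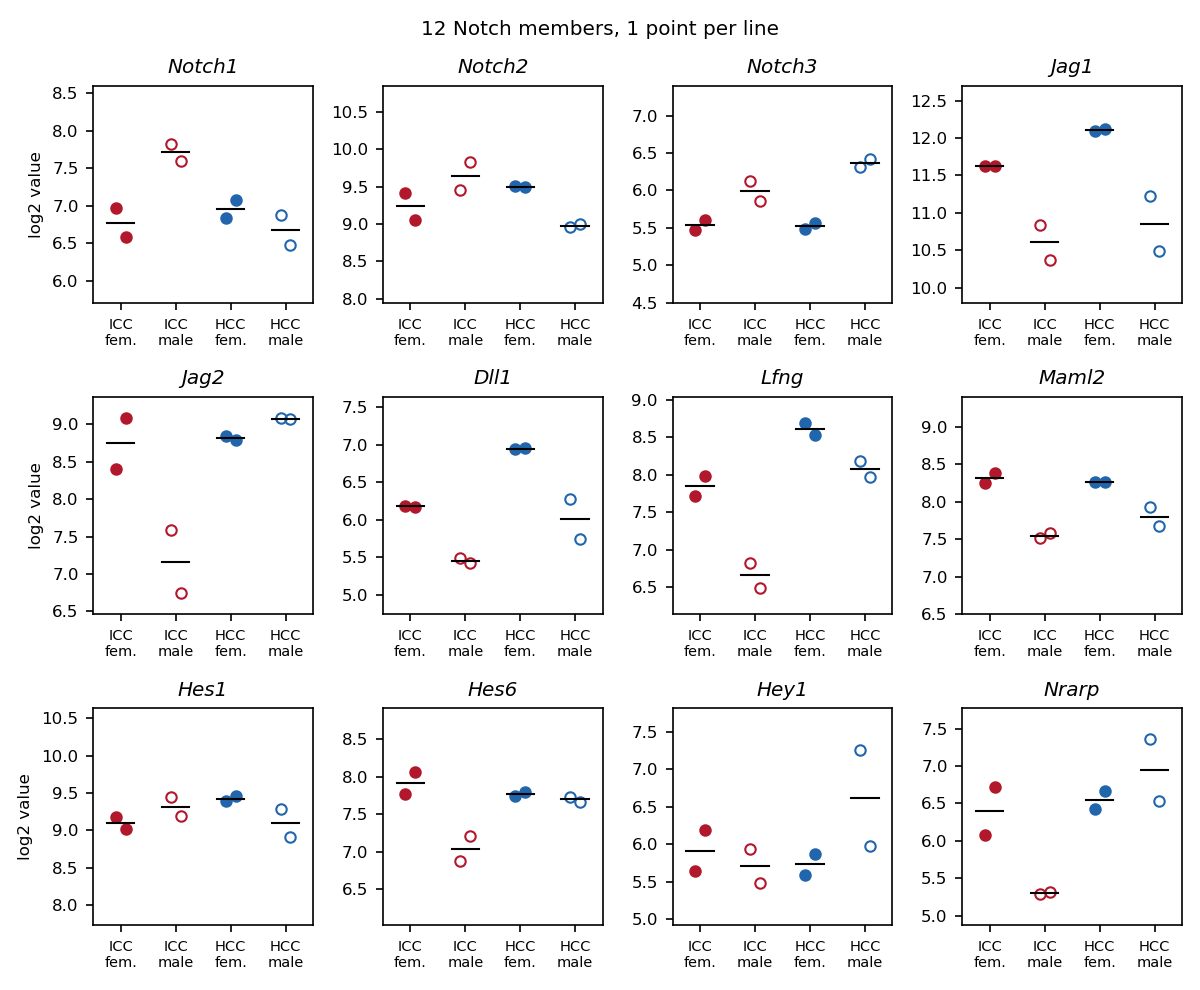
Log2 values of 12 members, 1 point per line, for ICC (red) and HCC (blue) lines labelled female (filled) or male (open), with a bar at the mean of each pair; every panel spans 2.9 log2 units. Jag1, Dll1, Lfng and Maml2 lie higher in the female-labelled pair of each type, and Jag2, Lfng, Hes6 and Nrarp are lowest in the male-labelled ICC lines.

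The genes listed as targets were compared by RNA level, and the activity of the pathway itself was not measured. Hes1, the best known target and a transcriptional repressor, measured 9.18 in ICC9, 9.02 in ICC10, 9.44 in ICC2.7 and 9.19 in ICC2.9, and 9.28 in HCC1, 8.91 in HCC4, 9.39 in HCC2.1 and 9.46 in HCC2.4. The means of 9.21 ± 0.17 in ICC and 9.26 ± 0.25 in HCC lines (SD, n = 4 each) differed by -0.05, with a 95% interval of -0.37 to 0.27. The values of the types lay fully among each other, and the interval leaves out a change of 1 log2 unit in either direction. Hes5, another repressor of the family, measured 6.17, 6.31, 6.12 and 6.42 in ICC9, ICC10, ICC2.7 and ICC2.9 and 6.55, 6.48, 6.02 and 6.24 in HCC1, HCC4, HCC2.1 and HCC2.4. It differed by -0.07 (95% interval -0.37 to 0.23). The second Hes5 probe set lay lower, at 4.62 to 5.14, and had every male-labelled value above every female-labelled one.

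Nrarp, a target whose product feeds back to inhibit Notch, was lowest in the male-labelled ICC lines. It measured 6.08 in ICC9, 6.72 in ICC10, 5.29 in ICC2.7 and 5.32 in ICC2.9, and 7.36 in HCC1, 6.53 in HCC4, 6.43 in HCC2.1 and 6.67 in HCC2.4. ICC10 lay inside the range of the HCC lines and the other 3 ICC lines below it. The difference was -0.90 (1.86-fold lower in ICC, 95% interval -1.66 to -0.13, adjusted p = 0.288). Hes6, which counters Hes1, measured 7.77, 8.07, 6.87 and 7.21 in ICC9, ICC10, ICC2.7 and ICC2.9 and 7.73, 7.67, 7.74 and 7.80 in HCC1, HCC4, HCC2.1 and HCC2.4. The 4 female-labelled values lay above the 4 male-labelled ones, by 0.475 on average (adjusted p = 0.219), while within HCC lines that gap was 0.07.

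Among the HEY repressors, Hey1 had its highest value in HCC1, which a Dixon outlier test over the 4 HCC lines did not flag. It measured 7.26 in HCC1, against 5.97 in HCC4, 5.59 in HCC2.1 and 5.87 in HCC2.4, and 5.64, 6.19, 5.93 and 5.48 in ICC9, ICC10, ICC2.7 and ICC2.9. HCC1 was also the line with the highest Nrarp. The Hey1 means of 5.81 ± 0.31 in ICC and 6.17 ± 0.74 in HCC lines differed by -0.36 (SD, n = 4 each, adjusted p = 0.678). Hey2 measured 4.58, 4.76, 4.63 and 4.43 in ICC9, ICC10, ICC2.7 and ICC2.9 and 4.77, 4.41, 4.32 and 4.37 in HCC1, HCC4, HCC2.1 and HCC2.4. Heyl measured 5.88, 5.96, 5.81 and 5.49 in the ICC lines and 5.49, 5.57, 5.48 and 5.68 in the HCC lines in that order. ICC2.9 alone among the ICC lines had Heyl at the HCC level, and the difference was 0.23 (adjusted p = 0.409). Array weights gave the 1 call for this gene (0.32, adjusted p = 0.0351), but their estimation did not converge.

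The promoters of 3 target genes and of Jag1 and Lfng, a ligand and a fringe gene called between the sexes, show which carry the core letters recognised by RBPJ. They are the 250 bases before the start of transcription in RefSeq (GRCm38.p6), 5′ to 3′ on the gene's strand, in lower case with TGGGAA, on either strand, in capitals. Their places are chr4:154960673-154960922, plus strand for Hes5; chr10:30842784-30843033, minus strand for Hey2; chr2:25180508-25180757, plus strand for Nrarp; chr2:137116521-137116770, minus strand for Jag1 and chr5:140607091-140607340, plus strand for Lfng.
Hes5: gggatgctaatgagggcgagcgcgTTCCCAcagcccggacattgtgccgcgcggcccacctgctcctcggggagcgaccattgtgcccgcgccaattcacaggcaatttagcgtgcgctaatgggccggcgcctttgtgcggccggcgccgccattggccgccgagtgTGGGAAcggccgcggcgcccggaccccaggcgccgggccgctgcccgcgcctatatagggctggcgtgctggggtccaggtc
Hey2: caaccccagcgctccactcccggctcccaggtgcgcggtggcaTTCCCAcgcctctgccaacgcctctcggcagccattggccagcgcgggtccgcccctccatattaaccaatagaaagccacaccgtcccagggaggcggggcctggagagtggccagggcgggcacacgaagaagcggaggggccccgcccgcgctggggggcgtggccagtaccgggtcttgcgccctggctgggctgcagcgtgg
Nrarp: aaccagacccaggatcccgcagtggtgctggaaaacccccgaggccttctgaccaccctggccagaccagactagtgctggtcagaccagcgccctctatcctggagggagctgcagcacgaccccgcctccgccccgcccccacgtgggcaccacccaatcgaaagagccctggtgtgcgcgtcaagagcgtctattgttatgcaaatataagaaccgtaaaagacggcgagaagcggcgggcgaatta
Jag1: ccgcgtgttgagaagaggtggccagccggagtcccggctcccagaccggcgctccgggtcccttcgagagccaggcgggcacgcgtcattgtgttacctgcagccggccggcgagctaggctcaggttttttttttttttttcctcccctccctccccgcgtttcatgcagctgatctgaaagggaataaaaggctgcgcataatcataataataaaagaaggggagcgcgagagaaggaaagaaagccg
Lfng: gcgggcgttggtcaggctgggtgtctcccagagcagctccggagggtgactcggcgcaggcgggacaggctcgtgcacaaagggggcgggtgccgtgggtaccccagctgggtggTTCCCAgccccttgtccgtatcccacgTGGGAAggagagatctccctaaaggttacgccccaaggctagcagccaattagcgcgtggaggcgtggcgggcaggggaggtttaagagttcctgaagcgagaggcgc
Hes5 and Lfng hold 2 matches each in these bases, Hey2 holds 1, and Nrarp and Jag1 hold none. In windows that also take in 50 bases after the start, 8 of the 28 members in the table (28.6%) had a match, beside 28.3% of 27025 genes. With the longer GTGGGAA, which contains the shorter motif, it was 4 members (Hes5, Hey2, Lfng and Psen2, 14.3%) beside 7.25% of genes. A match is a description of the letters and not a measured binding site. The printed promoters with and without a match included genes called between the sexes (Lfng and Jag1) and genes that were not called (Hes5, Hey2 and Nrarp). Of members not printed, the called genes Dll1 and Notch3 and the target Hes6 had no TGGGAA in the longer windows. The called gene Maml2 had it in 1 window. No promoter was available for the targets Hes1, Hey1 and Heyl.

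RBPJ and the Mastermind-like coactivators form the nuclear complex. Maml2 measured 8.25 in ICC9, 8.39 in ICC10, 8.27 in HCC2.1 and 8.27 in HCC2.4, against 7.51 in ICC2.7, 7.58 in ICC2.9, 7.93 in HCC1 and 7.67 in HCC4. All female-labelled lines lay above all male-labelled ones, by 0.62 (SE 0.10, 1.54-fold, adjusted p = 0.0198). The gap was 0.77 within ICC and 0.47 within HCC lines. It was not called without ICC9 (0.62, adjusted p = 0.1) or once the missing direction was modelled (0.0601). Of the fits with a line left out, only those without HCC1 or HCC4 called it. Maml2 differed by -0.10 between ICC and HCC lines (adjusted p = 0.883). Maml1 measured 7.89, 7.69, 8.24 and 8.28 in ICC9, ICC10, ICC2.7 and ICC2.9 and 8.09, 7.87, 8.05 and 8.22 in HCC1, HCC4, HCC2.1 and HCC2.4, and Maml3 lay between 7.56 and 8.03. Rbpj itself lay between 10.45 and 10.87, with a difference of 0.14 between the types (95% interval -0.08 to 0.35, adjusted p = 0.562).

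Numb and Numbl, adaptors that remove Notch from the membrane, leaned in opposite directions by sex. Numb measured 7.32, 7.33, 7.62 and 7.60 in ICC9, ICC10, HCC2.1 and HCC2.4 and 6.95, 7.01, 7.36 and 7.04 in ICC2.7, ICC2.9, HCC1 and HCC4. Numbl measured 8.23, 8.29, 7.98 and 7.83 in the female-labelled and 8.67, 8.38, 8.35 and 8.30 in the male-labelled lines in that order. Neither passed over all genes (0.38 and -0.34, adjusted p = 0.0688 and 0.106). Numb was called among genes above the median level, with quantile normalization and without HCC1.

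Pofut1, which adds the O-fucose that fringe enzymes extend, was higher in male-labelled lines without passing the test. It measured 7.08, 6.98, 6.99 and 6.96 in ICC9, ICC10, HCC2.1 and HCC2.4 and 7.55, 7.41, 7.14 and 7.15 in ICC2.7, ICC2.9, HCC1 and HCC4 (-0.31, adjusted p = 0.119). The genes for the proteases that cut the receptor had no call for type or sex. Adam10 ranged from 10.29 to 11.02 and Adam17 from 9.01 to 9.53, while the gamma-secretase genes Ncstn and Psen2 ranged from 10.65 to 10.81 and from 5.99 to 6.25. Ncstn had the narrowest range of all members, 0.16 log2 units.

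Of the Deltex genes, which encode ubiquitin ligases that bind Notch, Dtx4 varied most. It measured 7.60, 7.42, 7.51 and 7.50 in ICC9, ICC10, ICC2.7 and ICC2.9 and 7.83, 6.97, 8.02 and 8.26 in HCC1, HCC4, HCC2.1 and HCC2.4, so that the ICC lines lay within the spread of the HCC lines. Dtx1 measured 5.74, 5.92, 5.57 and 5.54 in the ICC lines and 5.82, 5.96, 5.59 and 5.73 in the HCC lines in that order. Dtx2 lay between 6.75 and 7.14 and Dtx3 between 8.48 and 9.20. At the probe sets kept, limma called none of the 4 for type or sex, and none had an unadjusted p under 0.05 in either comparison. A second probe set of Dtx1, at 4.68 to 5.14, had every female-labelled value above every male-labelled one.

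**Figure D3:**
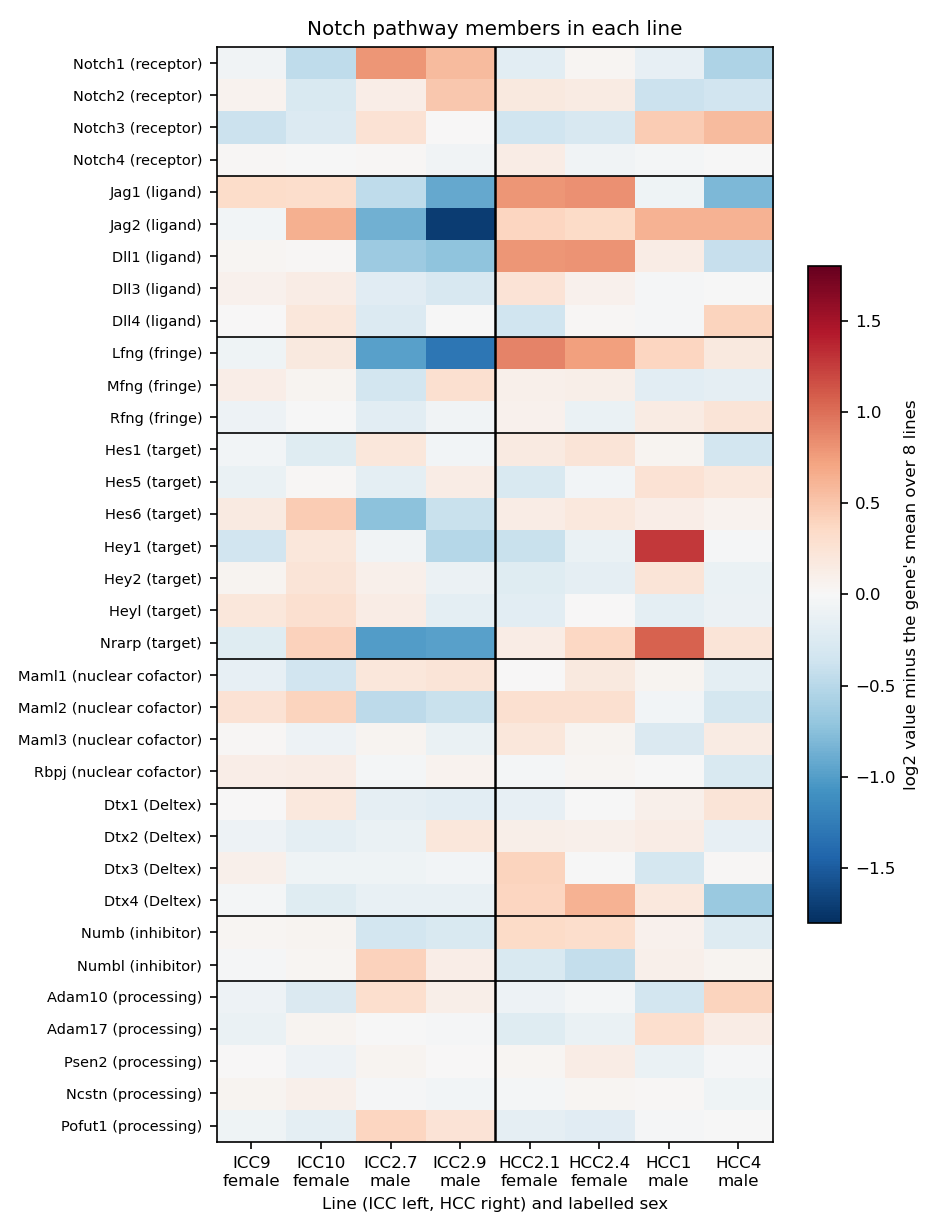
Log2 value of each member minus its own mean over the 8 lines (colour), with members in rows by role and lines in columns, ICC left and HCC right of the black line. Blue cells for Jag2, Lfng, Hes6 and Nrarp and red cells for Notch1 mark the male-labelled ICC lines, and HCC1 has the red cells for Hey1 and Nrarp.

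A test of whether the ICC minus HCC difference itself differed between the sexes called 0 members and 0% of all genes, with 9 members (26.5%) and 20.1% of all genes at an unadjusted p under 0.05. The term was 1.84 for Jag2 (1.58 more in female- than male-labelled lines within ICC and 0.26 less within HCC, adjusted p = 0.119). It was 1.49 for Nrarp (adjusted p = 0.132), 0.81 for Hes6 (0.125), -1.22 for Notch1 (0.115) and -0.93 for Notch2 (0.121). The missing direction overlaps this term, with a cosine of 0.345, and with it in the model limma called 255 genes and 0 members, with the smallest member p adjusted to 0.073 for Notch1. Whether these members differ between the types in 1 sex more than in the other was therefore not settled by the test.

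**Figure D4:**
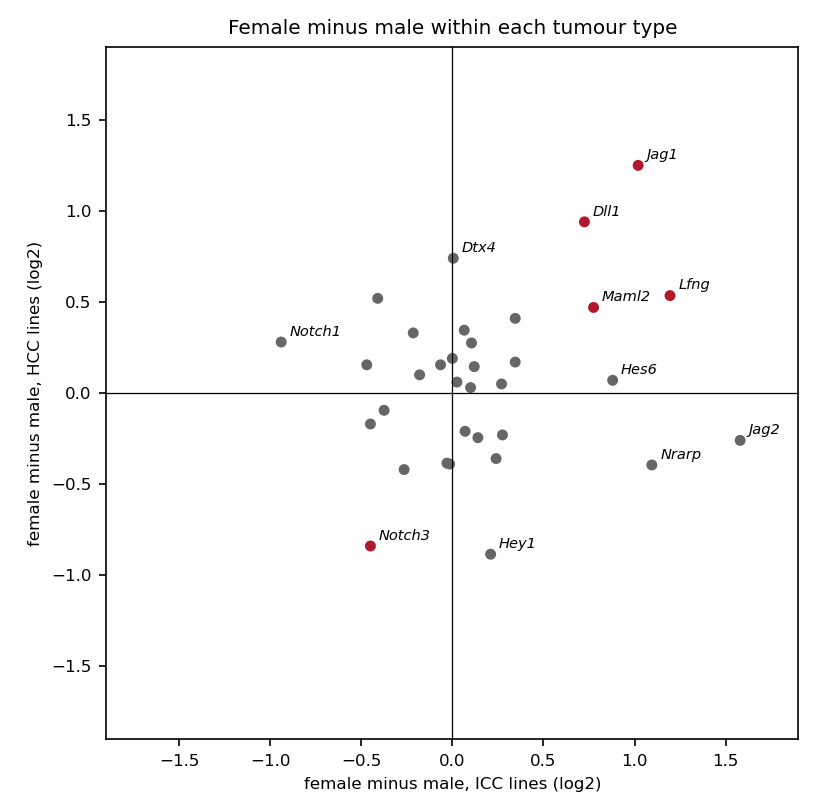
Female minus male log2 difference in ICC lines (horizontal) and in HCC lines (vertical), each from a pair of lines against a pair, 1 point per member; red marks the 5 members called over all 8 lines. Jag1, Dll1, Lfng and Maml2 lie upper right and Notch3 lower left, whereas Jag2, Nrarp and Hey1 have opposite signs in the types.

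The female minus male difference had the same sign in ICC and in HCC lines for 20 of 34 members (58.8%), beside 50.1% of all genes. In the ICC lines alone, 2 against 2, limma called Jag1, Dll1, Lfng, Maml2 and Notch1, 5 members beside 4.95% of all genes. In the HCC lines alone it called 0 members beside 0.41% of all genes (91), a background at which few calls among 34 genes could be seen. The HCC differences of Jag1 (1.25) and Dll1 (0.94) were no smaller than those in ICC; HCC1 lay above HCC4 in both genes. Of 5 biliary markers measured, 1 was called between the sexes, the keratin gene Krt19 (2.19 higher in female-labelled lines, adjusted p = 0.00483). Krt7, Epcam, Sox9 and Cftr were not called (differences -0.035, 0.29, 0.23 and 0.24). The summed log2 level of the 5, to which Sox9 contributed most, was 11.876 to 12.003 in female- and 11.56 to 11.65 in male-labelled lines. No marker was at 0, and the part of these markers in the ligand differences was not tested.

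Over all members, lines of 1 type and sex had the smallest mean distance. Averaged over genes, absolute log2 differences came to 0.203 in the 4 pairs of 1 type and sex (0.195 over all genes), 0.397 in the 8 pairs of 1 type and different sex (0.296), 0.3495 in the 8 pairs of 1 sex and different type (0.292) and 0.386 in the 8 pairs that differed in both (0.308). The closest pair over the members was HCC2.1 with HCC2.4 (0.128), and ICC2.9 with HCC2.1 was the most distant (0.506). Pairs share lines, and no test was run. A range over the 8 lines of at least 1 log2 unit was reached by 9 members (26.5%), against 16.3% of all genes: Notch1, Jag1, Jag2, Dll1, Lfng, Hes6, Hey1, Nrarp and Dtx4.

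Further genes of the pathway gave no call between the tumour types. Of the 55 analysed, limma called 0 (beside 0.261% of all genes). An unadjusted p under 0.05 was reached by 12 (21.8%, beside 14.1%), and 7 had no overlap between the types (beside 8.63% of all genes). The median difference of the 55 was 0.03. The smallest p-values belonged to the Groucho corepressor genes Tle4 (6.87 ± 0.21 in ICC and 7.67 ± 0.44 in HCC lines, SD, n = 4 each, adjusted p = 0.162) and Tle2 (6.59 ± 0.24 and 6.99 ± 0.08, adjusted p = 0.204), both with no overlap between types. Ccn3, a matricellular protein that binds Notch, measured 6.85 ± 0.49 and 5.82 ± 0.61 (adjusted p = 0.220), and the histone deacetylase gene Hdac1 measured 11.04 ± 0.07 and 10.74 ± 0.16 (adjusted p = 0.229). Between the sexes limma called 1 of the 55 (1.82%, beside 2.94% of all genes), Neurl1b, a ubiquitin ligase for Notch ligands, higher in female-labelled lines by 0.475 (adjusted p = 0.0429). The biliary target Sox9 differed by -0.10 between ICC and HCC lines (adjusted p = 0.714).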

How the data were processed

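RNA from 8 clonal mouse lines was put on 1 Affymetrix array per line, labelled by the WT PLUS kit. Per the submitters' processing notes, the authors made the deposited log2 values with RMA in the oligo package; their versions: not given in the sources used here. Of 39993 probe sets, 23521 name exactly 1 gene in the platform's annotation. RMA makes the distributions of the arrays alike, so a shift shared by most genes cannot be seen. Dim probe sets were kept.

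Differences were tested with limma 3.58.1 (R 4.3.3), two-sided, by lmFit followed by eBayes, and called at an adjusted p below 0.05 (Benjamini-Hochberg, 22180 genes). An SE is limma's moderated standard error, and intervals use the moderated degrees of freedom. Tumour type was fitted without covariates, labelled sex with type, and the interaction with both. The code was tested on simulated data with known differences. Alternatives changed the eBayes settings, level filter, normalization, array weights, probe sets, covariates, blocks and lines used; quantile normalization, centring, probe set rules, averaging and single types for the sex comparison were added after seeing the data. All 34 members are named, with all 8 values for receptors, ligands, fringes, targets and members with an unadjusted p under 0.05 in any comparison or a range of at least 1 log2 unit. Of the further genes, the 4 with the smallest p between types are named, and Sox9 and Neurl1b were added after their values were seen. The members and lists were chosen with earlier results of these data known. Promoters are from RefSeq (GRCm38.p6). Tables and figures used Python 3.11.15, pandas 2.3.3, numpy 2.4.6 and matplotlib 3.10.9.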

Additional observations from a re-analysis of the deposited data

How the results depend on the processing

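Between ICC and HCC lines the count of genes called moved from 58 to 103 among genes above the median level, 12 with the missing direction in the model, 6 with lines of 1 type and sex as a random block, 0 with those lines averaged (1170 at an unadjusted p under 0.05, limma), 2278 with array weights, 428 with sex as a covariate, 119 with sex and the missing direction, 696 in female and 200 in male lines only, and from 2 to 109 with a line left out. The count of members called was 0, and it was 1 with array weights (Heyl), 2 with sex as a covariate (Dll1 and Lfng), 1 in female lines only (Dll1) and 1 in male lines only (Lfng). It was 0 with each line left out.

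Between the sexes the count of genes moved from 653 to 280 with the missing direction, 334 with the random block, 6 with the lines of a pair averaged, 1098 in ICC and 91 in HCC lines only, and from 146 to 917 with a line left out. The averaged fit and the fits by type were chosen after seeing the data. The count of members called moved from 5 to 4 with the random block (Lfng lost), 2 with the missing direction, 0 with pairs averaged, 0 in HCC lines only, and from 0 to 5 with a line left out. For the interaction the count of genes moved from 0 to 255 with the missing direction and from 0 to 238 with a line left out. The cause was not tested. No called member reversed its direction. Of values not called in either setting, 49 for type (22 members), 31 for sex (15 members) and 12 for the interaction (8 members) turned sign. No paired analysis was possible because the replicate numbers only follow the order of the samples.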
